A study of Homo sapiens with 11 samples.

Results

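Amino acid transporters of 7 gene families (SLC1A, SLC3A, SLC6A, SLC7A, SLC36A, SLC38A and SLC43A) were followed across all 5 groups of a reprogramming factor experiment in retinal pigment epithelium (RPE) cells. Members were taken by symbol, as every listed feature named by one of these family names and a number, which gave 59 of the 60605 features. A value of at least 10 normalised counts in at least 2 libraries was needed for testing, and 38 of the 59 reached it. Some members reached it in only some of the groups, which favours a difference between groups. SLC1A2 and SLC43A3 reached it only in GFP library 1 and OSK library 1, which are described below. Counts over the 38 therefore describe those 38 and not the whole set.

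The cells were ARPE-19, an established human RPE line, made into stable lines that expressed an open reading frame for 4 days. The open reading frame was GFP, a fluorescent protein that served as the control (n = 3 libraries), Oct4, Sox2 or Klf4 (n = 2 each), or all of Oct4, Sox2 and Klf4, called OSK (n = 2). According to the series text, the experiment asked which candidate genes of oxidative defence these factors induce. The promoter that drives the open reading frames, their species, the clonality of the lines and the meaning of the tag mC in the library names are not stated. The labels also do not say that libraries of a group came from separate cultures, so p-values measure only the spread between these libraries, which may be technical.

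Depth ranged from 15053300 to 19791775 recovered reads per library. POU5F1 (the gene of Oct4) stood at 66823 and 67326 normalised counts in the Oct4 line, 19020.4 and 19542 in OSK and at most 445.6 elsewhere. SOX2 and KLF4 were likewise high only in their own line and in OSK. Of 15 RPE marker genes, 12 reached 10 normalised counts in every GFP library, but RPE65, TTR and DCT stayed at or near 0 in every group. The summed RPE marker level was 33573 to 37258 in GFP, 26139 to 29295 in Klf4, 21516 to 22199 in Sox2, 18519.6 to 19089.7 in Oct4 and 16032 to 16315 in OSK. Without the keratins KRT8 and KRT18 the other 13 summed to 12868 to 16552 in GFP, 8542 to 10354 in Klf4, 5741 to 6131 in OSK, 4421 to 5084 in Oct4 and 2531 to 2588 in Sox2. The 6 markers of pluripotent cells summed to 422.9 to 571 in GFP and to between 193.5 and 403.4 in the 4 factor lines. GFP library 1 and OSK library 1 stood apart from the other 9 libraries by low-level reads over many silent genes: olfactory receptor genes were detected at 67.7% and 23.0% in them, against 4.94% to 8.15% in the others. Where leaving out GFP library 1 gained or ended a member's call against GFP, the value without it is given beside the result.

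Cells move amino acids through carriers that differ in substrate and in the ion or amino acid they exchange. The heteromeric transporters pair a heavy chain, SLC3A2 (4F2hc, CD98), which brings the complex to the plasma membrane, with a light chain of the SLC7 family that does the transport. Among the light chains, SLC7A5 (LAT1) and SLC7A8 (LAT2) carry large neutral amino acids, SLC7A6 and SLC7A7 exchange cationic for neutral amino acids, and SLC7A11 (xCT) takes up cystine in exchange for glutamate and so feeds glutathione synthesis. SLC1A carriers take up glutamate or small neutral amino acids, SLC6A carriers use sodium and chloride gradients for neurotransmitters, glycine, proline, creatine and taurine, and SLC36A, SLC38A and SLC43A carry mostly neutral amino acids. The RPE, which lies between the photoreceptors and the choroidal blood supply, expresses many of these carriers.

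For some of the members on which the results turn, the 250 bases upstream of the annotated start were taken from RefSeq (GRCh38.p14), which held 66 start sites for 44 of the 59 members. They are shown for the heavy chain, a light chain that moved in opposite directions between lines, and the SLC6 members with the largest fall and the largest rise. SLC7A11 had no entry among these start sites, and the windows of SLC7A8, which has 4 starts, are not shown. Capitals mark matches, on either strand, to the letters searched: TGATGNAA, TGACNNNGC, ATGCAAAT, ACAAAG and CCACCC. SLC3A2 has 3 starts in the table, and the window printed was chosen after the matches were seen, as the one that held CCACCC and TGACNNNGC. It is chr11:62881449-62881698 on the plus strand. SLC7A5 is chr16:87869508-87869757, SLC6A20 is chr3:45796537-45796786 and SLC6A9 is chr1:44031463-44031712, the last 3 on the minus strand.
SLC3A2: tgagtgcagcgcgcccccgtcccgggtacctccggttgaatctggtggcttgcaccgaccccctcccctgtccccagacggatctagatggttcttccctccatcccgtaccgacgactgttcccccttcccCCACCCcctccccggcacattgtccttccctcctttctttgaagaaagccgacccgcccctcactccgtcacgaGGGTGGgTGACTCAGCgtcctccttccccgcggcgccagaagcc
SLC7A5: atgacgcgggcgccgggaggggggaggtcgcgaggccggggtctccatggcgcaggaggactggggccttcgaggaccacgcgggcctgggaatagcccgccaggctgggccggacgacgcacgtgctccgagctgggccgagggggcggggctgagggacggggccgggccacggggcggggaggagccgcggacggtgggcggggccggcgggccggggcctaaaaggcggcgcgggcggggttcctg
SLC6A20: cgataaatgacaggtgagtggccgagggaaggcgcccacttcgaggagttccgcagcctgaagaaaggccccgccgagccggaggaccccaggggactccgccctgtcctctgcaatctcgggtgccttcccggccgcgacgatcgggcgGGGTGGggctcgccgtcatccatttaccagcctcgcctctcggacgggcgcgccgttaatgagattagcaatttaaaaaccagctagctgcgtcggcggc
SLC6A9: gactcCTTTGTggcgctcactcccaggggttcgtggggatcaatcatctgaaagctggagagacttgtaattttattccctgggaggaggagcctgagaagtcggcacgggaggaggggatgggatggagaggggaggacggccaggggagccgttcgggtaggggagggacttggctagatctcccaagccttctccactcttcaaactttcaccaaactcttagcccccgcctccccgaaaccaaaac
The SLC3A2 window held CCACCC on both strands and one match to TGACNNNGC, the core of the antioxidant response element. Of its other windows, the one at the annotated gene start (chr11:62855859-62856108) held ACAAAG alone, and the third (chr11:62880646-62880895) held none of the letters searched. The SLC6A20 window held CCACCC on the strand opposite to the one printed, and the SLC6A9 window held ACAAAG, the letters bound by SOX factors, also on the opposite strand, while no searched letters were present in the SLC7A5 window. Over all 35116 promoters of the table, CCACCC was found in 31.3%, ACAAAG in 13.7%, TGACNNNGC in 10.9%, TGATGNAA (the C/EBP-ATF response element) in 3.14% and ATGCAAAT (the octamer) in 1.63%. Over the 66 member promoters the shares were 42.4%, 16.7%, 9.09% and 3.03%, and 0 for the octamer. A match describes these letters only and is not a bound site.

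Each line was compared with GFP by limma over all 18828 features tested, on log2(normalised count + 1), with an adjusted p under 0.05 as the threshold. Sox2 moved the most members: 10 of 38 were higher and 14 lower than in GFP, or 63.2% of those tested, where 41.6% of all features passed (21.7% higher and 19.9% lower). In Oct4 10 members were higher and 11 lower (55.3%, against 37.3% of all features, 20.1% higher and 17.2% lower). In OSK 8 were higher and 11 lower (50%, against 39.7% of all features, 19.7% higher and 20.0% lower). In Klf4 8 were higher and 7 lower (39.5%, against 33.5% of all features, 17.6% higher and 16.0% lower). The median log2 change of the 38 was -0.63 in Sox2, -0.35 in Klf4, -0.22 in Oct4 and -0.10 in OSK, beside -0.02, -0.02, -0.02 and -0.01 over all features. These 4 comparisons share the GFP libraries. A difference anywhere among the 5 groups was called for 30 of the 38 members (78.9%), against 65.7% of all features.

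**Figure D1:**
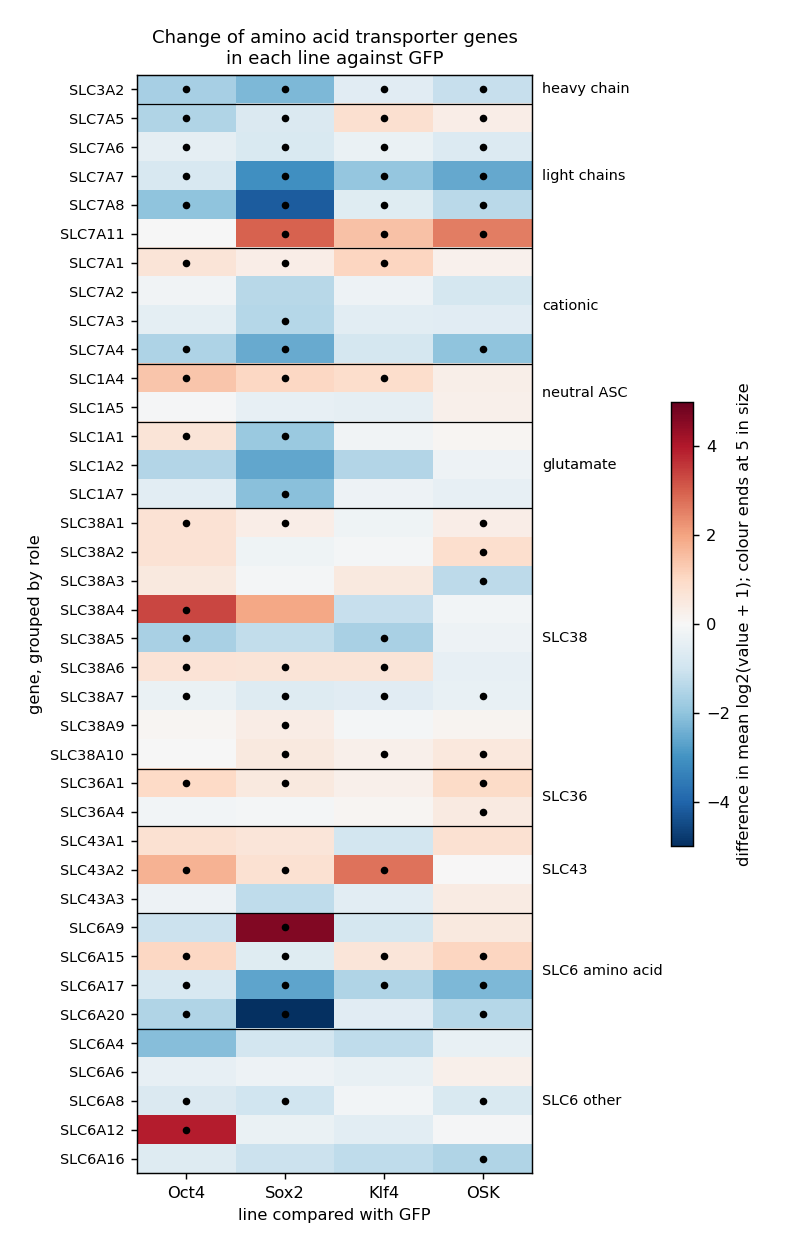
Heat map of the log2 change (colour) of the 38 tested members (rows) in each line against GFP (columns), on log2(normalised count + 1); dots mark changes with an adjusted p under 0.05, and the colour scale ends before the Sox2 value of SLC6A20. SLC3A2, SLC7A8, SLC7A7, SLC7A6, SLC6A17 and SLC38A7 carry a dot as lower in all 4 columns, and no member carries one as higher in all 4.

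The heavy chain SLC3A2 was highest in GFP and lower in every factor line. Its normalised counts were 12339.5, 13845 and 14026 in the GFP libraries, 8862 and 9114 in Klf4, 5934 and 5963 in OSK, 4068 and 4489 in Oct4, and 2628 and 3031 in Sox2. None of the 5 groups overlapped another, and all 10 pairs of groups differed. SLC3A2 fell 4.74-fold in Sox2, with a log2 change of -2.24 (SE 0.08, limma adjusted p = 4.75e-12). The fall was 3.13-fold in Oct4 (log2 -1.65, SE 0.08, limma adjusted p = 2.01e-10), 2.25-fold in OSK (log2 -1.17, SE 0.08, limma adjusted p = 8.96e-09) and 1.49-fold in Klf4 (log2 -0.57, SE 0.08, limma adjusted p = 3.14e-05). SLC3A2 lies at chr11:62856102-62888875 on the plus strand (GENCODE 29, GRCh38) and shares no exon base with another gene there. SLC3A1, the other heavy chain, reached at most 10.7 normalised counts outside GFP library 1 and was not tested. In bulk RNA, fewer cells of a type and less RNA per cell cannot be told apart. The summed RPE marker level given above was also lower in each factor line than in GFP, with and without the keratins, and its part in these falls was not tested. Without the keratins its order over the groups was that of SLC3A2, whereas with all markers Sox2 lay above Oct4 and OSK. The sum also holds markers that did not fall in every line. RDH5 stood at 83.4, 74.9 and 67.1 normalised counts in GFP and 512.4 and 412.5 in Klf4. OTX2 stood at 1887, 1804 and 1952 in GFP and 2372 and 2267 in Klf4.

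SLC7A11 moved the other way from SLC3A2 in 3 of the 4 lines. It was low in GFP, at 27.8, 28.3 and 21.4 normalised counts, and in Oct4, at 23.2 and 27.5. It stood at 77.5 and 66.3 in Klf4, 139.8 and 171.6 in OSK, and 205.3 and 205.5 in Sox2. The Oct4 and GFP libraries overlapped, and every library of the other 3 lines lay above them. SLC7A11 rose 7.95-fold in Sox2 (log2 2.95, SE 0.22, limma adjusted p = 1.99e-08), 6.03-fold in OSK (log2 2.55, SE 0.22, limma adjusted p = 1.23e-07) and 2.78-fold in Klf4 (log2 1.45, SE 0.22, limma adjusted p = 7.73e-05). In Oct4 its log2 change was -0.02 (SE 0.22, limma adjusted p = 0.953). OSK exceeded Oct4 (log2 2.57, limma adjusted p = 3.1e-07) and Klf4 (log2 1.10, limma adjusted p = 0.00301), although the latter difference missed the threshold without OSK library 2 (adjusted p = 0.0542). OSK differed from Sox2 by -0.40 (SE 0.24, limma adjusted p = 0.197), which passed the threshold only when those 2 groups were fitted alone (adjusted p = 0.0417). The gene (chr4:138164097-138242349, minus strand) shares 865 of its 9645 exon bases with the antisense gene SLC7A11-AS1, and use of strand in the counting is not given in the sources used here. SLC7A11-AS1 itself was listed at no more than 3.3 normalised counts in any library.

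The log2 ratio of SLC7A11 to SLC3A2 was taken in each library. It averaged -8.97 ± 0.28 in GFP (SD, n = 3), -7.35 ± 0.06 in Oct4, -6.95 ± 0.19 in Klf4, -5.25 ± 0.20 in OSK and -3.77 ± 0.14 in Sox2 (SD, n = 2 each). Neither Oct4 nor Klf4 overlapped GFP, and OSK and Sox2 lay above all other groups without overlapping each other. An exact permutation test of the one-way F statistic (215) over all 17325 distinct assignments of the libraries gave p = 5.77e-05, the smallest it can give. Scaled by exon length, SLC7A11 amounted to 0.104% of SLC3A2 in GFP, 0.318% in Oct4, 0.430% in Klf4, 1.41% in OSK and 3.92% in Sox2. In Oct4 the ratio was higher than in GFP with SLC7A11 near its GFP level and SLC3A2 lower.

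**Figure D2:**
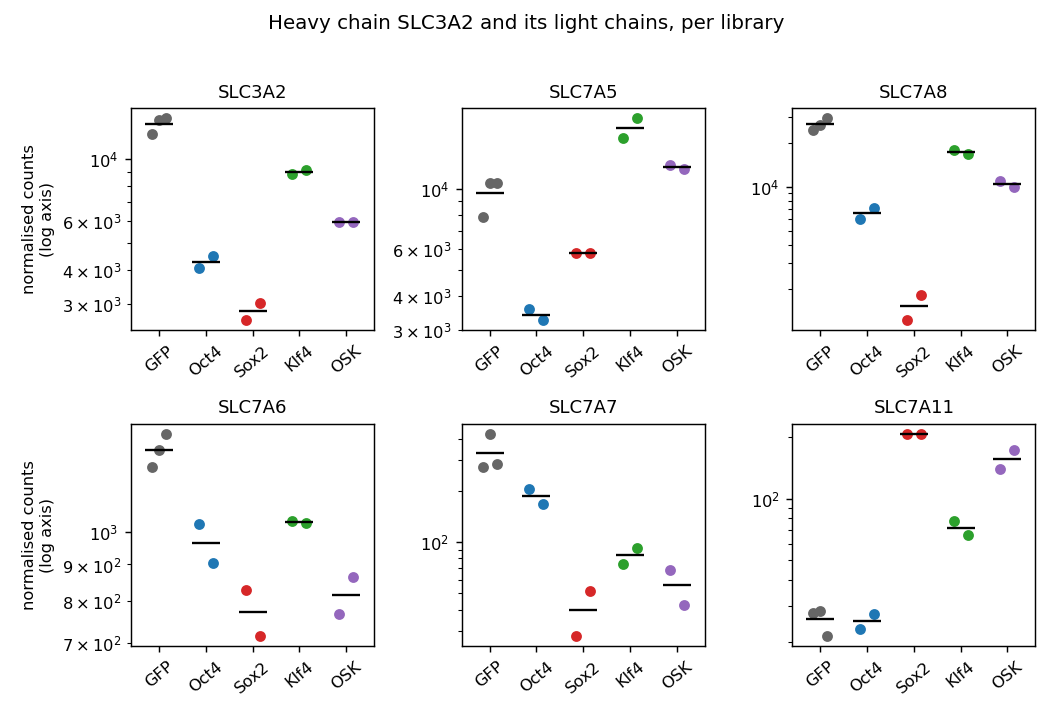
Normalised counts (log axis) of the heavy chain SLC3A2 and its light chains in each library (points), with the group mean as a line, for the 5 groups. SLC3A2 falls from between 12339.5 and 14026 in GFP to 2628 and 3031 in Sox2, while SLC7A11 is highest in Sox2 at 205.3 and 205.5.

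SLC7A8 and SLC7A5, the light chains for large neutral amino acids, parted from each other. SLC7A8 stood at 24535, 26319.9 and 29387 normalised counts in GFP, 17904 and 16896 in Klf4, 10876 and 9958 in OSK, 6024 and 7168 in Oct4, and 1216 and 1813 in Sox2. Like SLC3A2 it was highest in GFP and lowest in Sox2, with no overlap between groups and all 10 pairs called. It fell 17.7-fold in Sox2 (log2 -4.17, SE 0.13, limma adjusted p = 1.46e-12), 4.05-fold in Oct4 (log2 -2.02, SE 0.13, limma adjusted p = 5.84e-09), 2.57-fold in OSK (log2 -1.36, limma adjusted p = 4.73e-07) and 1.54-fold in Klf4 (log2 -0.62, limma adjusted p = 0.00154). SLC7A5 stood at 7843, 10549 and 10507 in GFP, 15501 and 18316 in Klf4, 12241 and 11846 in OSK, 5786 and 5793 in Sox2, and 3566 and 3250.5 in Oct4. It was thus above GFP in Klf4 and OSK and below GFP in Sox2 and Oct4, again without overlap between any 2 groups. SLC7A5 rose in Klf4 (log2 0.82, SE 0.11, limma adjusted p = 2.6e-05) and in OSK (log2 0.34, SE 0.11, limma adjusted p = 0.0235), and fell in Sox2 (log2 -0.72, limma adjusted p = 6.06e-05) and in Oct4 (log2 -1.49, limma adjusted p = 2.89e-08). The OSK rise missed the threshold without OSK library 1 (adjusted p = 0.133), without OSK library 2 (adjusted p = 0.0859), and with GFP library 1 and OSK library 1 both left out (log2 0.17, adjusted p = 0.169).

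The remaining light chains tested, both exchangers of cationic and neutral amino acids, fell in all 4 lines. SLC7A7 (y+LAT1) stood at 276.1, 426.9 and 286.8 normalised counts in GFP, 205.5 and 167.1 in Oct4, 74.0 and 92.6 in Klf4, 68.3 and 42.9 in OSK, and 28.1 and 51.4 in Sox2. Every library of the 4 lines was below every GFP library, and Sox2 and OSK overlapped. Its log2 change ran from -0.80 in Oct4 (SE 0.27, limma adjusted p = 0.0269) to -3.06 in Sox2 (SE 0.27, limma adjusted p = 1.38e-07), with -1.95 in Klf4 and -2.56 in OSK. The Oct4 call was lost without GFP library 2 (-0.60, adjusted p = 0.114) and without either Oct4 library. SLC7A6 (y+LAT2) changed less, by -0.33 in Klf4 (limma adjusted p = 0.00804), -0.43 in Oct4, -0.67 in OSK and -0.75 in Sox2 (limma adjusted p = 3.58e-06), and the Klf4 call was lost without Klf4 library 2 (adjusted p = 0.0513). Its exons share 55.6% of their bases with other genes, chiefly SLC7A6OS on the opposite strand, so its counts are uncertain. SLC7A9, SLC7A10 and SLC7A13 were too low to test.

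Per transcript length, as TPM values (length-scaled shares of a library) computed here from exon lengths, the light chains made up a smaller pool in Oct4, Sox2 and OSK than in GFP. The composition of the pool differed from GFP in all 4 lines. Their summed level was 1513 ± 126 TPM in GFP (SD, n = 3), 1451 ± 85.1 in Klf4, 979 ± 33.5 in OSK, 450.5 ± 22.2 in Oct4 and 390.1 ± 9.47 in Sox2 (SD, n = 2 each). The GFP and Klf4 libraries overlapped in this sum, and the other 3 groups lay below them. SLC7A8 supplied 66.3% of it in GFP, 55.3% in Oct4, 43.9% in Klf4, 39.4% in OSK and 15.7% in Sox2. SLC7A5 supplied 30.0% in GFP and 76.1% in Sox2, so that SLC7A5 was the smaller of the pair in GFP and Oct4 and the larger in Klf4, OSK and Sox2. The level of SLC3A2 relative to the light chain sum was 0.385 ± 0.016 in GFP, 0.416 ± 0.014 in Oct4, 0.340 ± 0.021 in Sox2, 0.262 ± 0.007 in Klf4 and 0.260 ± 0.010 in OSK. Over all 59 members the summed level was 2717 TPM in GFP, 2473 in Klf4, 1847 in OSK, 1313 in Oct4 and 1172 in Sox2, and SLC3A2, SLC7A5 and SLC7A8 together made up 75.0%, 72.6%, 65.2%, 45.7% and 41.9% of it. These sums are given without a test.

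**Figure D3:**
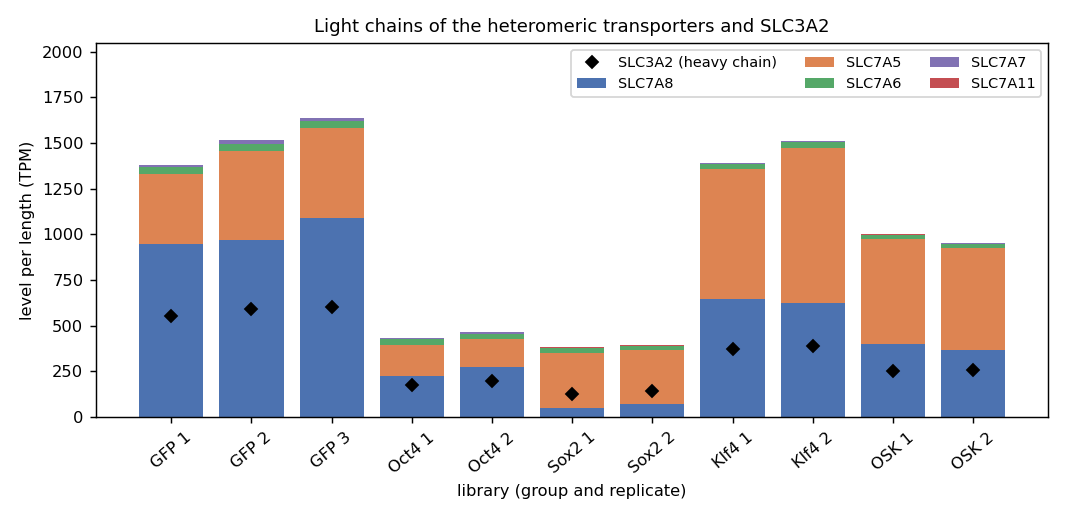
Levels per exon length (TPM) in each library, with the light chains stacked as bars and SLC3A2 as a diamond. SLC7A8 is the larger part of the bars in GFP (66.3%) and a small part in Sox2 (15.7%), where SLC7A5 makes up 76.1%.

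Among the SLC6 carriers of amino acids, SLC6A20, a sodium-dependent transporter of proline and other imino acids, was nearly absent from the Sox2 line. Its normalised counts were 208.5, 173.0 and 282.9 in GFP, 215.1 and 98.3 in Klf4, 92.1 and 68.2 in OSK, 55.7 and 100.7 in Oct4, and 1.12 and 1.71 in Sox2. Of the Klf4 libraries 1 lay within the GFP range and 1 below it, whereas the Oct4 and OSK libraries lay below GFP and overlapped each other. Sox2 had 3 reads against 672 in GFP. The depth-corrected read ratio was 153-fold lower, with a 95% exact (Clopper-Pearson) interval from 52.0 to 741 that covers counting error only. The log2 change in Sox2 was -6.51 (SE 0.34, limma adjusted p = 3.78e-10), a fitted value that depends on the added 1. SLC6A20 fell 2.76-fold in OSK (log2 -1.44, SE 0.34, limma adjusted p = 0.0028) and 2.83-fold in Oct4 (log2 -1.52, SE 0.34, limma adjusted p = 0.0021). The Oct4 value was -1.10 without Oct4 library 1 and then missed the threshold (adjusted p = 0.0591). In Klf4 the change was -0.57 (SE 0.34, limma adjusted p = 0.218), and without Klf4 library 1 it was -1.13 (adjusted p = 0.0441).

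The order of SLC6A20 levels was GFP, Klf4, OSK, Oct4 and Sox2. Between neighbours only the step to Sox2 passed the threshold in the main fit, although the Klf4 and OSK libraries did not overlap. OSK exceeded Sox2 by 5.07 (limma adjusted p = 2.09e-08) and Oct4 exceeded it by 4.99 (limma adjusted p = 3.52e-08), both fitted values against the 3 reads of Sox2. OSK and Oct4 differed by 0.08 (SE 0.37, limma adjusted p = 0.889), and OSK and Klf4 by -0.87 (SE 0.37, limma adjusted p = 0.116), a call that DESeq2 (adjusted p = 0.0474) and the fit without Klf4 library 2 (adjusted p = 0.0222) would make. Oct4 and Klf4 differed by -0.95 (limma adjusted p = 0.0517). That difference was called by edgeR (adjusted p = 0.0349), DESeq2 (adjusted p = 0.0238) and several other alternatives, among them the fit without GFP library 1 (adjusted p = 0.0463). The gene lies at chr3:45755450-45796535 on the minus strand and shares no exon base with another gene.

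SLC6A9 (GLYT1), a glycine transporter, had the largest rise of all members in Sox2. It stood at 90.4, 23.3 and 20.4 normalised counts in GFP, 15.1 and 17.2 in Oct4, 8.1 and 41.1 in Klf4, 41.2 and 59.4 in OSK, and 936.8 and 877.6 in Sox2. Both Sox2 libraries were far above all others, and the other 4 groups overlapped in part. SLC6A9 rose 20.3-fold in Sox2 (log2 4.65, SE 0.58, limma adjusted p = 7.16e-06), and 5.32 on the log2 scale without GFP library 1, whose value was the highest of GFP. OSK did not follow Sox2, being lower than it (log2 -4.17, SE 0.63, limma adjusted p = 6.22e-05), and did not pass against GFP (0.48, SE 0.58, limma adjusted p = 0.562). Its exons share 7.83% of their bases with CCDC24 on the opposite strand, which stood at 178.4 and 207.2 in Sox2 and at 41.2 to 149.9 elsewhere.

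SLC6A15 and SLC6A17, transporters of branched-chain and other neutral amino acids, differed in direction. SLC6A15 stood at 294.9, 315.6 and 325.6 normalised counts in GFP, 602.7 and 667.3 in Oct4, 474.2 and 468.5 in Klf4, 651.5 and 677.5 in OSK, and 230.0 and 177.2 in Sox2. It rose in Oct4 (log2 1.02, limma adjusted p = 1.76e-06), Klf4 (log2 0.59, limma adjusted p = 0.0005) and OSK (log2 1.09, limma adjusted p = 7.99e-07) and fell in Sox2 (log2 -0.62, limma adjusted p = 0.000216). SLC6A17 stood at 616.7, 697.0 and 733.9 in GFP, 346.0 and 444.1 in Oct4, 255.6 and 226.2 in Klf4, 153.9 and 132.0 in OSK, and 115.6 and 104.5 in Sox2. It fell in every line without overlap, by -0.79 in Oct4 (limma adjusted p = 0.000162), -1.50 in Klf4, -2.25 in OSK and -2.62 in Sox2 (limma adjusted p = 2.38e-10), and all 10 pairs of groups differed. The pair of OSK and Sox2 was lost without OSK library 1 (0.26, adjusted p = 0.285), without either Sox2 library, and without 1 of several libraries of the other groups.

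Of the SLC6 carriers for other substrates, SLC6A8, the creatine transporter, was the most abundant at 169.9 TPM in GFP. It stood at 3605, 4382 and 4504 normalised counts in GFP, 3788 and 3775 in Klf4, 2464 and 2548 in Oct4, 2467 and 2425 in OSK, and 1995 and 2141 in Sox2. It fell in Sox2 (2.01-fold, limma adjusted p = 8.15e-08), OSK (log2 -0.76, limma adjusted p = 2.19e-06) and Oct4 (log2 -0.73, limma adjusted p = 4.01e-06), while Klf4 lay within the GFP range (log2 -0.13, limma adjusted p = 0.253). GFP library 1 was the lowest of GFP, and without it the Klf4 fall passed (log2 -0.23, adjusted p = 0.00512). SLC6A12, a carrier of betaine and GABA, was high only in Oct4, at 75.5 and 112.2 against 22.8, 4.05 and 0.97 in GFP, 12.3 and 0.86 in Sox2, 2.31 and 4.57 in Klf4, and 4.34 and 5.5 in OSK. Both Oct4 libraries exceeded every other library. SLC6A12 rose in Oct4 by 3.91 on the log2 scale (SE 0.93, limma adjusted p = 0.00348), from 28 reads in GFP to 163, and this missed the threshold without Oct4 library 2 (adjusted p = 0.0524). The fitted change was 4.88 without GFP library 1 and 3.08 without GFP library 3. SLC6A6, the taurine transporter, passed in no comparison with GFP and was higher in OSK than in Oct4 (log2 0.68, limma adjusted p = 0.0136), a difference lost without either Oct4 library 2 or OSK library 2. SLC6A16, of no settled substrate, had a log2 change of -1.49 in OSK (limma adjusted p = 0.0439), yet its OSK and GFP libraries overlapped (15.2 and 5.5 against 46.7, 35.4 and 12.6), edgeR did not call it (adjusted p = 0.0508), and it was lost without GFP library 1 (-1.12, adjusted p = 0.117).

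**Figure D4:**
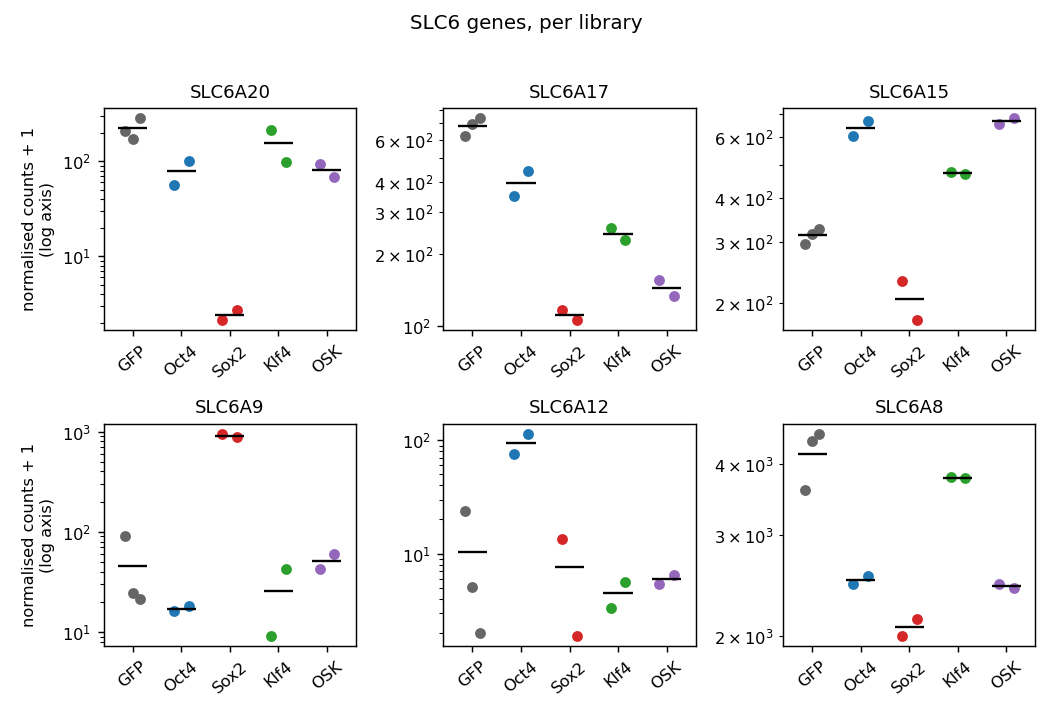
Normalised counts + 1 (log axis) of SLC6 carriers in each library (points) and the group mean (line) for the 5 groups. SLC6A20 is at 1.12 and 1.71 normalised counts in Sox2, SLC6A9 is high in Sox2 alone at 936.8 and 877.6, and SLC6A12 is high in Oct4 alone at 75.5 and 112.2.

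SLC7A1 (CAT1), the main carrier of arginine and lysine, was higher in each single-factor line than in GFP. It stood at 1947, 2325 and 2393 normalised counts in GFP, 4642 and 4559 in Klf4, 3544 and 3459 in Oct4, 2785 and 2821 in Sox2, and 2621 and 2466 in OSK. Klf4 was highest and no groups overlapped. It rose in Klf4 (log2 1.06, SE 0.08, limma adjusted p = 5.37e-08), Oct4 (log2 0.66, limma adjusted p = 6.6e-06) and Sox2 (log2 0.34, limma adjusted p = 0.00251), and its change in OSK was 0.20 (SE 0.08, limma adjusted p = 0.0575). Other members of its subfamily were low. SLC7A4, of uncertain transport activity, fell in Oct4 (log2 -1.55, limma adjusted p = 0.017), Sox2 (log2 -2.52, limma adjusted p = 0.000425) and OSK (log2 -2.02, limma adjusted p = 0.00281) from 22.4 to 38.7 normalised counts in GFP, and the Oct4 call was lost without either Oct4 library. SLC7A3, a further cationic carrier, fell in Sox2 (log2 -1.41, limma adjusted p = 0.00865), to 12.3 and 12.0 from 20.4 to 44.7 in GFP.

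SLC43A2 (LAT4), a sodium-independent carrier of large neutral amino acids, had the largest rise of all members in Klf4. It stood at 173.8, 129.5 and 104.0 normalised counts in GFP, 1034 and 757.6 in Klf4, 435.4 and 451 in Oct4, 214.3 and 239.8 in Sox2, and 126.8 and 144.1 in OSK. The OSK libraries lay within the GFP range and all 3 single-factor lines above it. SLC43A2 rose 6.60-fold in Klf4 (log2 2.73, SE 0.18, limma adjusted p = 1.05e-08), 3.26-fold in Oct4 (log2 1.73, SE 0.18, limma adjusted p = 1.21e-06) and 1.67-fold in Sox2 (log2 0.77, limma adjusted p = 0.00241). In OSK the log2 change was 0.03 (SE 0.18, limma adjusted p = 0.931), and OSK was below Klf4 (log2 -2.70, limma adjusted p = 6.47e-08). SLC43A1 (LAT3) did not pass against GFP, where it stood at 45.7, 11.1 and 18.5. Without GFP library 1, the highest of these, it passed as higher in Oct4 (log2 1.31, adjusted p = 0.0134), Sox2 (log2 1.15, adjusted p = 0.0258) and OSK (log2 1.29, adjusted p = 0.0139). It was higher in OSK than in Klf4 (log2 1.66, limma adjusted p = 0.031), lost without either Klf4 library or OSK library 2, and in Oct4 than in Klf4 (log2 1.68, limma adjusted p = 0.0154), lost without Klf4 library 1 or Oct4 library 2.

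The SLC1A family holds glutamate carriers and the neutral ASC carriers. SLC1A1 (EAAT3), a glutamate and cysteine transporter, stood at 266.1, 171 and 184.7 normalised counts in GFP, 336.7 and 298.7 in Oct4, 209.2 and 229.9 in OSK, 156.2 and 202.2 in Klf4, and 48.2 and 64.2 in Sox2. It rose in Oct4 (log2 0.64, SE 0.19, limma adjusted p = 0.0144) and fell in Sox2 (log2 -1.85, SE 0.19, limma adjusted p = 8.79e-07), while OSK and Klf4 overlapped GFP. The Oct4 rise was lost without Oct4 library 1 (0.55, adjusted p = 0.121), GFP library 2 (0.51, adjusted p = 0.0594) or GFP library 3 (0.57, adjusted p = 0.0529). SLC1A7 (EAAT5) fell in Sox2 (log2 -2.10, limma adjusted p = 2.05e-05), to 10.1 and 18.8 from 58.6, 66.8 and 62.2. SLC1A4 (ASCT1), which carries alanine, serine and cysteine, stood at 123.1, 113.3 and 120.5 in GFP, 328.6 and 302.2 in Oct4, 231.1 and 254.3 in Sox2, 220.9 and 214.8 in Klf4, and 143.1 and 145.2 in OSK. SLC1A4 rose in Oct4 (log2 1.40, limma adjusted p = 1.39e-07), Sox2 (log2 1.02, limma adjusted p = 3.43e-06) and Klf4 (log2 0.87, limma adjusted p = 3.11e-05), and its change in OSK was 0.28 (SE 0.12, limma adjusted p = 0.0787). SLC1A5 (ASCT2), a glutamine carrier, passed in none of the 10 comparisons, at 35.9 to 97.3 normalised counts, and shares 23.8% of its exon bases with other genes. SLC1A2 (EAAT2) passed in none either, at 53.6 in GFP library 1, 10.8 in OSK library 1 and at most 1.16 elsewhere.

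Of the 11 members of the SLC38 family, 9 were tested, and they split by line. SLC38A1 (SNAT1), a sodium-coupled glutamine carrier, stood at 5814, 4403 and 4681.5 normalised counts in GFP, 8153 and 7935 in Oct4, 6193 and 6131 in Sox2, 5704 and 6679.7 in OSK, and 3938 and 4471 in Klf4. It rose in Oct4 (log2 0.71, SE 0.10, limma adjusted p = 4.67e-05), Sox2 (log2 0.32, limma adjusted p = 0.019) and OSK (log2 0.32, limma adjusted p = 0.0191), with OSK library 1 inside the GFP range. Both the Sox2 and the OSK call were lost without GFP library 2 (0.24 in each) or GFP library 3 (0.28 and 0.29), and each without 1 or more of its own libraries. SLC38A2 (SNAT2), its close relative, was low at 50.5 to 141.9, and its OSK rise (log2 0.83, limma adjusted p = 0.031) was lost in several alternatives, among them the fit without GFP library 3 (0.61, adjusted p = 0.125). In Oct4 SLC38A2 passed as higher only in some alternatives, among them the fit without GFP library 1 (0.98, adjusted p = 0.00825). SLC38A4 (SNAT4) reached 40.6 and 25.2 in Oct4 from 5.96, 4.05 and 0 in GFP (log2 3.33, SE 0.86, limma adjusted p = 0.00622; 57 reads against 10), and missed the threshold without Oct4 library 1 (adjusted p = 0.0883). The Oct4 value was 2.48 without GFP library 3, and without GFP library 1 SLC38A4 also passed in Sox2 (2.46, adjusted p = 0.018).

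SLC38A7, a lysosomal carrier, fell in all 4 lines, by -0.33 in Oct4 (limma adjusted p = 0.00468), -0.36 in OSK, -0.55 in Klf4 and -0.64 in Sox2 (limma adjusted p = 1.09e-05), with the Oct4 call lost without Oct4 library 2 (adjusted p = 0.109). SLC38A10 rose in OSK (log2 0.51, limma adjusted p = 0.000185), Sox2 (log2 0.48, limma adjusted p = 0.000309) and Klf4 (log2 0.26, limma adjusted p = 0.0313), the last lost without GFP library 1 (0.16, adjusted p = 0.0653). SLC38A9, a lysosomal arginine sensor, rose in Sox2 (log2 0.37, limma adjusted p = 0.0245), a call lost without Sox2 library 1, GFP library 2 or GFP library 3. SLC38A6 rose in Oct4 (log2 0.68), Sox2 (log2 0.63) and Klf4 (log2 0.66, limma adjusted p = 0.0223), and all 3 calls were lost without GFP library 1, which was the lowest of GFP at 66.5 against 115.3 and 110.8. The values were then 0.43, 0.37 and 0.41, and its OSK change, not called with all libraries, passed as a fall (-0.66, adjusted p = 0.00391). SLC38A3 (SNAT3) fell in OSK (log2 -1.31, limma adjusted p = 0.0191), to 15.2 and 6.6, and this call too was lost without GFP library 1 (-0.94, adjusted p = 0.064). SLC38A5 (SNAT5) had log2 changes of -1.61 in Oct4 (limma adjusted p = 0.0416) and -1.62 in Klf4 (limma adjusted p = 0.0449), both lost without GFP library 1 (-1.11, adjusted p = 0.124, and -1.11, adjusted p = 0.131).

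SLC36A1 (PAT1), a proton-coupled lysosomal carrier of small amino acids, stood at 328.7, 307.5 and 316.9 normalised counts in GFP, 653.7 and 626.1 in Oct4, 579.9 and 644.5 in OSK, 457.8 and 432.4 in Sox2, and 343.5 and 406.8 in Klf4. It rose in Oct4 (log2 1.01, SE 0.10, limma adjusted p = 4.95e-07), OSK (log2 0.94, limma adjusted p = 9.28e-07) and Sox2 (log2 0.48, limma adjusted p = 0.000641), and Oct4 and OSK overlapped. SLC36A4 (PAT4) rose in OSK alone among the comparisons with GFP (log2 0.47, limma adjusted p = 0.00647), a call lost without OSK library 2 (adjusted p = 0.119).

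**Figure D5:**
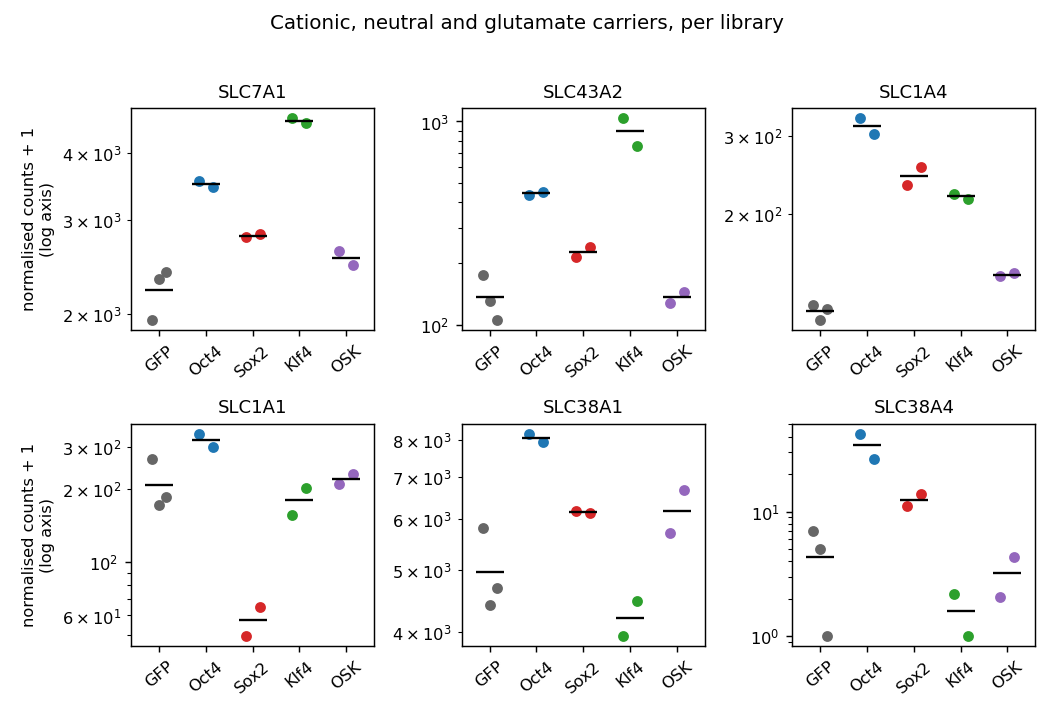
Normalised counts + 1 (log axis) of 6 carriers of the SLC7, SLC43, SLC1 and SLC38 families in each library (points) and the group mean (line). SLC43A2 is highest in Klf4 at 1034 and 757.6, SLC1A1 is lowest in Sox2 at 48.2 and 64.2, and the OSK points of SLC43A2 and SLC1A4 lie nearest to those of GFP.

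Set directly against the single-factor lines, OSK differed from each in a similar number of members. Against Oct4, 7 members were higher in OSK and 10 lower (40.3% of all features passed there), and the largest differences were in SLC7A11, in SLC7A5 (log2 1.82, limma adjusted p = 7.58e-09), in SLC6A12 (log2 -3.98, limma adjusted p = 0.00513) and in SLC38A4 (log2 -3.46, limma adjusted p = 0.00778). The SLC6A12 call was lost without Oct4 library 2 (adjusted p = 0.0545), and the SLC38A4 call without Oct4 library 1 (adjusted p = 0.0833) or OSK library 1 (adjusted p = 0.0615). Against Sox2, 13 were higher and 5 lower (40.5% of all features), led by SLC6A20, SLC7A8 (log2 2.81, limma adjusted p = 3.4e-10) and SLC1A1 (log2 1.96, limma adjusted p = 1.4e-06) among those higher and by SLC6A9 among those lower. Against Klf4, 7 were higher and 11 lower, or 47.4% of the members tested where 21.5% of all features passed. Without OSK library 2 the count was 11 of 37, where 13.6% of all features passed. With all libraries SLC43A2, SLC38A3 (log2 -1.79, limma adjusted p = 0.00901), SLC38A6 (log2 -1.07, limma adjusted p = 0.00268) and SLC7A1 (log2 -0.86, limma adjusted p = 2.57e-06) were lower in OSK, the call for SLC38A3 being lost without OSK library 2 (adjusted p = 0.128) or Klf4 library 1 (adjusted p = 0.06), and SLC36A1 (log2 0.71, limma adjusted p = 0.000113) was higher.

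Oct4 and Sox2, the single-factor lines with the most changes against GFP, also differed from each other in 22 members, 18 higher in Oct4 and 4 lower (33.4% of all features passed). SLC6A12 (log2 4.22, limma adjusted p = 0.00423; lost without Oct4 library 2 or Sox2 library 2, and 5.64 without Sox2 library 1), SLC1A1 (log2 2.49, limma adjusted p = 1.27e-07) and SLC6A20 were higher in Oct4, and SLC6A9 (log2 -5.73, limma adjusted p = 2.98e-06), SLC7A11 (log2 -2.97, limma adjusted p = 7.9e-08) and SLC7A5 (log2 -0.77, limma adjusted p = 0.000117) were lower. Between Oct4 and Klf4, 19 members differed, 11 higher in Oct4 and 8 lower (41.7% of all features), with SLC38A4 (log2 4.49, limma adjusted p = 0.00112) and SLC7A5 (log2 -2.31, limma adjusted p = 3.74e-10) at the ends. SLC38A4 had 57 reads in Oct4 and 1 in Klf4, a depth-corrected ratio of 57.2 with a 95% exact counting interval from 9.85 to 2297. Between Sox2 and Klf4, 20 differed, 6 higher in Sox2 and 14 lower (40.8% of all features), with SLC6A9 (log2 5.53, limma adjusted p = 2.89e-06, and 4.43 or 6.64 without Klf4 library 1 or 2) highest and SLC6A20 (log2 -5.93, limma adjusted p = 2.64e-09) lowest.

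By pattern over the 4 comparisons with GFP, 6 members passed as lower in all of them (SLC3A2, SLC7A6, SLC7A7, SLC7A8, SLC6A17 and SLC38A7) and 0 passed as higher in all. In addition, 3 members, SLC7A5, SLC6A15 and SLC1A1, were called in opposite directions in different lines. SLC7A1, SLC1A4, SLC43A2 and SLC38A6 passed as higher in each single-factor line and did not pass in OSK. SLC43A3, SLC6A4, SLC7A2, SLC1A2 and SLC1A5 passed in none of the 10 pairs of groups. The share of all features with each of these patterns was not counted, and the 4 comparisons share the GFP libraries. These counts therefore describe the members alone and do not set them apart from other genes.

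The 21 members that were not tested were low nearly everywhere. Among them were SLC1A3, SLC1A6, SLC3A1, SLC36A2, SLC36A3, SLC38A8, SLC38A11, SLC6A2, SLC6A3, SLC6A5, SLC6A7, SLC6A11, SLC6A13, SLC6A14, SLC6A18, SLC6A19, SLC7A9, SLC7A10, SLC7A13 and SLC7A14. Of these, 20 were highest in GFP library 1, where 1 reached 39.7 normalised counts, and no value in another library exceeded 10.7. Their summed level was 341.6 in GFP library 1, 55.3 in OSK library 1 and 13.2 to 30.3 in the other 9. The 59 members were all detected in GFP library 1, 56 in OSK library 1 and 43 to 48 in the others. SLC1A3 (GLAST) is a glutamate transporter and SLC6A14 a broad amino acid transporter.

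Genes of the amino acid response, whose transcription factor is ATF4, were listed apart from the members (29 of 30 tested). The list also holds ATF4 itself and the kinase gene EIF2AK4. In Oct4 3 were higher than in GFP and 12 lower (median log2 change -0.22), in Sox2 9 and 9 (0.04), in Klf4 8 and 13 (-0.08), and in OSK 12 and 9 (0.06), or 51.7%, 62.1%, 72.4% and 72.4% of the 29 called. Of all features 37.3%, 41.6%, 33.5% and 39.7% were called in these comparisons. For this list and the other lists below, the genes and comparisons named are examples, and others also passed. The largest rises on this list were in the serine synthesis genes PSAT1 and PHGDH. PSAT1 stood at 197.6, 200.3 and 205.1 normalised counts in GFP and 1447 and 1211 in Sox2 (log2 2.71, limma adjusted p = 1.3e-10), and PHGDH at 442.9, 385.4 and 390.8 in GFP and 2422 and 2600.2 in OSK (log2 2.63, limma adjusted p = 3.8e-10). Serine synthesis genes did not rise throughout: PHGDH fell in Oct4 (log2 -0.81, limma adjusted p = 0.00014). PSPH, a further gene of that pathway, did not pass in Sox2 (log2 0.13) or OSK (log2 -0.04). It was called lower in Oct4 (log2 -0.42) and Klf4 (log2 -0.47), calls that were lost when certain single libraries were left out. In OSK PSAT1 rose by 2.47 and STC2, a secreted stress-induced glycoprotein, fell by 2.00 on the log2 scale. DDIT4, an inhibitor of mTORC1, differed in direction, with log2 changes of -1.55 in Oct4, -2.13 in Sox2 and 1.89 in Klf4. In Oct4 the transcription factor CEBPB (log2 -1.35) and STC2 (log2 -1.22) also fell, in Sox2 NUPR1, a stress-response regulator, fell (log2 -1.79), and in Klf4 ATF3, a further transcription factor (log2 -1.87), and STC2 (log2 -1.73) fell.

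Of genes for the use of cystine and the synthesis of glutathione, 19 of 20 were tested, with 6 higher and 8 lower than GFP in Oct4 (median log2 change -0.15), 6 and 8 in Sox2 (-0.12), 6 and 5 in Klf4 (0.03), and 7 and 5 in OSK (0.09), or 73.7%, 73.7%, 57.9% and 63.2% of the 19 called, beside the same shares of all features. GCLM, the modifier subunit of glutamate-cysteine ligase, stood at 221.4, 209.4 and 222.6 normalised counts in GFP and 771 and 796.6 in Oct4 (log2 1.84, limma adjusted p = 3.7e-10), and it also rose in Sox2 (log2 0.72), Klf4 (log2 0.43) and OSK (log2 0.78). GCLC, the catalytic subunit of that ligase, instead fell in Oct4 (log2 -0.37), Sox2 (log2 -0.30) and Klf4 (log2 -0.48). In OSK GCLC did not pass (log2 0.19, limma adjusted p = 0.11). The Oct4 call of GCLC was lost without Oct4 library 2 (-0.24), and its Sox2 call without Sox2 library 2 (-0.23). CHAC2, which degrades glutathione, rose in Oct4 (log2 1.87) and Sox2 (log2 2.16). CD44, whose variant form binds SLC7A11, rose in Oct4 (log2 1.69), OSK (log2 1.56) and Sox2 (log2 0.26), the last lost without either Sox2 library. Counts here are per gene and do not separate that form from other CD44 transcripts. CTH, which makes cysteine from cystathionine, rose in OSK (log2 2.00, limma adjusted p = 7.8e-07) from 48.6 to 57.7 normalised counts in GFP to 219 and 217.8. TXNRD1, thioredoxin reductase, fell in all 4 lines, by -0.64 in Oct4 (limma adjusted p = 2.99e-06), -1.72 in Sox2, -1.07 in Klf4 and -1.31 in OSK on the log2 scale. MAT2A, which makes S-adenosylmethionine, fell in Sox2 (log2 -0.92), and in Klf4 CBS fell (log2 -0.82) and CHAC1 rose (log2 0.97, limma adjusted p = 0.039), the last lost without GFP library 1 (adjusted p = 0.0503), GFP library 3, Sox2 library 1 or either Klf4 library.

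Of carriers of amino acids outside the 7 families and genes of nutrient sensing, 32 of 38 were tested, with 7 higher and 8 lower in Oct4 (median log2 change -0.10), 7 and 11 in Sox2 (-0.03), 3 and 9 in Klf4 (-0.11), and 6 and 10 in OSK (-0.11), or 46.9%, 56.2%, 37.5% and 50.0% of the 32 called, beside the same shares of all features. SLC16A10 (TAT1), a carrier of aromatic amino acids, stood at 30.8, 29.3 and 28.2 normalised counts in GFP, rose to 95.2 and 100.7 in Oct4 (log2 1.70, limma adjusted p = 0.00094), and fell in Sox2 (log2 -1.46) and in OSK, to 14.1 and 14.3 (limma adjusted p = 0.029), the last lost without GFP library 2, GFP library 3 or either OSK library. SLC15A3, a lysosomal peptide and histidine carrier, fell in Oct4 (log2 -2.14), Sox2 (log2 -3.06) and Klf4 (log2 -3.13, limma adjusted p = 0.0068) from 19.2 to 33.8 in GFP, at few reads. Its Oct4 call was lost without any 1 of GFP library 1, 2 or 3, Oct4 library 1 or 2, or Sox2 library 1 or 2, and its Klf4 call without Klf4 library 2 (-1.64, adjusted p = 0.151). SLC25A29, a mitochondrial carrier of basic amino acids, rose in Klf4 (log2 1.20), and SESN1, a sestrin, rose in OSK (log2 1.17), where SLC15A4 fell (log2 -0.68). The arginine sensor CASTOR1 fell in Oct4 (log2 -1.48), the mitochondrial carrier SLC25A18 fell in Sox2 (log2 -1.69) and RRAGC, a Rag GTPase, fell in Klf4 (log2 -0.61). The CASTOR1 call was lost without Oct4 library 2 (-0.72, adjusted p = 0.259) or GFP library 3 (-1.28, adjusted p = 0.0571), and the SLC25A18 call without GFP library 1 (-1.09, adjusted p = 0.0611) or Sox2 library 2 (-1.44, adjusted p = 0.126). CHAC1, CTH and CBS stood on both the first and the second of these lists.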

How the data were processed

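Polyadenylated RNA of 11 ARPE-19 libraries was analysed from a single deposited table. It holds normalised counts (a signal, not raw counts): the authors divided each library's gene counts by 1 factor and rounded to 2 decimals, as the values themselves show. The submitters' processing notes name STAR 2.7.1a, featureCounts 1.6.2 and the builds GRCh38/hg38 and GRCm38/mm10, without roles. The annotation and use of strand are not given in the sources used here. Whole reads were recovered by dividing by the value of 1 read (100% of values whole in each library, within rounding).

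Groups came from the sample titles. The main test was limma 3.58.1 (R 4.3.3; lmFit and eBayes with trend) on log2(value + 1) over 18828 features with at least 10 in at least 2 libraries, in 1 model of 5 group means (6 residual and 9.21 prior degrees of freedom) and Benjamini-Hochberg adjustment over all features tested. This scale understates the change of low genes. Alternatives were edgeR 4.0.16 and DESeq2 1.42.0 on recovered reads, other pseudocounts (0.5 and 5), no filter, TMM scaling, the compared groups alone, a replicate block, leaving out each library in turn, and leaving out GFP library 1 and OSK library 1 together. edgeR called 6774, 7834, 6048 and 7232 features in Oct4, Sox2, Klf4 and OSK against GFP. The limma procedure was tested on simulated data, with the same dispersion for every feature and changes placed in OSK alone. Those settings differ from these data, so the simulation gives no error rate for them. Levels per length (TPM) used exon lengths of GENCODE 29, matched for 54647 features and all 59 members.

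The members and lists were chosen with earlier results of these data known. Besides SLC7A11, SLC3A2 and SLC6A20, the members named were the 6 largest rises and falls past the threshold against GFP, the 4 largest each way between OSK and a single factor, and the 3 largest each way between single factors. Of each other list the 3 largest changes were named, with further values added after they were seen. Members outside this rule are named as part of their family and were chosen after their values were seen. Values of 1 untested member are not reported here.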

Additional observations from a re-analysis of the deposited data

How the results depend on the processing

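Of 104 results for single members, each refitted under every other setting (2080 values), none changed direction where the main or the refitted value passed the threshold. Changes of sign between values that both missed the threshold were not counted. With all libraries kept, 30 values lost the threshold and 6 gained it, with GFP library 1 and OSK library 1 both left out 4 lost it and 0 gained it, and with 1 library left out 71 lost it and 7 gained it. Counts of members called stayed within 1.5 times of the main count in every setting that kept all 11 libraries or left out GFP library 1 and OSK library 1 together, ranging from 19 to 21 in Oct4, 21 to 25 in Sox2, 12 to 15 in Klf4 and 15 to 20 in OSK against GFP. Leaving out 1 library gave 15 to 23, 21 to 25, 13 to 17 and 13 to 19. For OSK against Klf4 the count was 18, and between 11 (without OSK library 2) and 21 when 1 library was left out; the lone OSK library was then assumed to vary like the other groups. Without GFP library 1, 19 of 21, 23 of 24, 12 of 15 and 17 of 19 members kept their call in Oct4, Sox2, Klf4 and OSK. No rescaling moved the median of all features by as much as 0.1 on the log2 scale or turned a member's call.

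Replicate numbers did not pair the libraries: the correlation of the difference between replicates 1 and 2 ran from -0.0693 to 0.0418 between groups, except 0.412 between GFP and OSK. With a replicate block, 20, 23, 15 and 18 members were called in Oct4, Sox2, Klf4 and OSK against GFP, and the ratio of SLC7A11 to SLC3A2 gave an exact permutation p of 0.0367. GFP library 3 was alone in its block, so in limma the block removed its weight. For the ratio, the block fixed that library's value at 0 and so widened the spread within GFP (F statistic 10.3). This p therefore cannot show whether the ratio depends on pairing. Leaving out 1 library gave 7.94e-05 to 0.00106 for the ratio. Fitted log2 changes of members near 0 reads (SLC6A20 in Sox2, SLC38A4, SLC6A12) moved most with the pseudocount, and depth limits what can be said of the 21 untested members.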
